A study of Homo sapiens with 24 samples.

Results

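Transforming growth factor beta (TGF-β) signaling was followed through 10 genes, chosen by their symbols: the ligands TGFB1, TGFB2, TGFB3 and INHBA, the receptors TGFBR1 and TGFBR2, the SMAD proteins SMAD3 and SMAD7, the corepressor SKIL, and TGFBI, a matrix protein gene named for its induction by TGF-β. They are 10 of the 60448 gene symbols for which read counts were deposited. All 10 were found in every table and all 10 passed the filter on low counts in each comparison.

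The samples were 24 RNA sequencing libraries of BPH-1 and RWPE-1, human prostate epithelial cell lines immortalized with genes of SV40 and of HPV18, respectively. Vector control cells carried an empty lentiviral vector (3 libraries for BPH-1 and 1 for RWPE-1). The C-Raf parental cells overexpressed wild-type C-Raf, a kinase of the MAPK pathway, from a lentivirus with a ubiquitin promoter (3 libraries for BPH-1 and 4 for RWPE-1). Metastasis-derived lines were grown in culture from tumors that C-Raf cells had formed after intracardiac injection into NSG mice, which lack T, B and NK cells (6 libraries from BPH-1 and 7 from RWPE-1). Both cell lines had been engineered with luciferase reporters. Each cell line had its own medium: the labels give DMEM with fetal bovine serum for BPH-1 and serum-free keratinocyte medium with bovine pituitary extract and EGF for RWPE-1. The BPH-1 metastasis-derived lines were titled bone R069, R071, R072, R074 and R075 and thymus R075. For both libraries numbered R075 the title and the treatment label name different sites, so neither was given a site. They are called by their titles, but the label of thymus R075 is bone and that of bone R075 is thymus. The RWPE-1 lines came from lymph node (LN1A and LN1B), spine (Spine and Spine2) and bone (Bone4, Bone5 and Bone6). Nothing in the labels says that libraries of a group came from separate cultures, so p-values measure the spread between these libraries, which may be technical.

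TGF-β ligands are secreted bound to a latency peptide and, once released, bring together the receptors TGFBR2 and TGFBR1. TGFBR1 then phosphorylates SMAD2 and SMAD3, which enter the nucleus with SMAD4 and change transcription. INHBA encodes the activin A subunit, whose homodimer signals through activin receptors to the same SMADs. SMAD7 and SKIL are both induced by the pathway and restrain it: SMAD7 acts at the receptor, and SKIL, also called SnoN, binds the SMADs on DNA. In epithelium TGF-β is known for arresting growth and for promoting a mesenchymal state and metastasis.

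In GRCh38 with the GENCODE 29 annotation, TGFB1 lies at chr19:41301587-41353911, TGFB2 at chr1:218346235-218444619, TGFB3 at chr14:75958099-75982991 and INHBA at chr7:41667168-41705834. The receptor genes are at chr9:99104038-99154192 (TGFBR1) and chr3:30606502-30694142 (TGFBR2). SMAD3 is at chr15:67063763-67195195, SMAD7 at chr18:48919853-48952052, SKIL at chr3:170357678-170396835 and TGFBI at chr5:136028895-136063818. TGFB1, TGFB3, INHBA and SMAD7 are on the minus strand and the other 6 on the plus strand. All 10 are protein-coding genes whose counts sum over their exons.

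The promoters of 4 members are shown because their transcripts changed most (TGFB2, INHBA) or moved together (SMAD7, SKIL). Each run is the 250 bases before a RefSeq transcript start in GRCh38.p14, with matches of the motifs named after them in capitals. SMAD7 has 3 such windows, and the one holding a match is shown.

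TGFB2, chr1:218345086-218345335, plus strand: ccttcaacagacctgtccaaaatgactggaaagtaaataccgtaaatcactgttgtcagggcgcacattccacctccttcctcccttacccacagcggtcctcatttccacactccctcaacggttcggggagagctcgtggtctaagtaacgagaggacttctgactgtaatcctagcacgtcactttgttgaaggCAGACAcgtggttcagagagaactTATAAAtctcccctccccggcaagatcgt

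INHBA, chr7:41703091-41703340, minus strand: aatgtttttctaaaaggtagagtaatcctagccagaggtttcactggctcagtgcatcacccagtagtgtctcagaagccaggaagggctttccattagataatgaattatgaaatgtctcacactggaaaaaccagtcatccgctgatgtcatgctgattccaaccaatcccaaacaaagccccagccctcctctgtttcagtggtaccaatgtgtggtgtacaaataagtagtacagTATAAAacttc

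SMAD7, chr18:48949334-48949583, minus strand: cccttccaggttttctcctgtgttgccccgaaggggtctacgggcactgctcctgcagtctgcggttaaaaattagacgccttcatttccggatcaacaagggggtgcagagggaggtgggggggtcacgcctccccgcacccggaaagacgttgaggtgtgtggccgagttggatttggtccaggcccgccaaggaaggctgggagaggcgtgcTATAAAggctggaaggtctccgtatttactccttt

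SKIL, chr3:170357465-170357714, plus strand: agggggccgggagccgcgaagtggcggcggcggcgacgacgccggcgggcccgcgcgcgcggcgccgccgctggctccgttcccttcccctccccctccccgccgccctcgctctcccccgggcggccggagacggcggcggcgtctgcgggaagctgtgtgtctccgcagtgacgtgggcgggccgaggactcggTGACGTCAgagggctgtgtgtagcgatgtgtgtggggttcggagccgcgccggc

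The motifs searched on both strands were the cAMP response element TGACGTCA, the AP-1 site TGANTCA, the SMAD-binding palindrome GTCTAGAC, the CAGA core CAGACA and the TATA box TATAAA. TGFB2 held a CAGA core 53 to 48 bases and a TATA box 29 to 24 bases before its start. TATA boxes were found 11 to 6 bases before the INHBA start and 35 to 30 bases before the SMAD7 start of the window shown. The other SMAD7 windows, before other starts, held none of these motifs. SKIL held a cAMP response element 54 to 47 bases before its start and no TATA box. Of all 35116 RefSeq windows of this length, 10.7% held the TATA box, 13.6% the CAGA core, 1.65% the cAMP response element, 6.57% the AP-1 site and 0.182% the palindrome. These are matches of letters only and do not show binding.

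Protein-coding counts ran from 20566347 to 42008187 in 21 libraries. The other 3, BPH-1 bone R071, bone R074 and bone R075, had 464701, 132310 and 111178, and 93.3% to 97.5% of all their counts fell on the noncoding RNA RN7SL1. That RNA took 4.60% to 30.3% of the counts in the 3 deeper BPH-1 metastasis-derived libraries and at most 0.00932% in all other groups, so it moves with that group, and its part in the results was not tested. The 3 shallow libraries are given apart as counts. Levels are counts per 1000000 protein-coding counts, scaled by edgeR's TMM method (CPM). Among the 21 deeper libraries this scaling raised the values of bone R072 most, so its place against other libraries depends on it. All 8 epithelial markers (EPCAM, CDH1, TP63 and 5 keratin genes) had counts in all but 1 of the deeper libraries, where 7 had. In bulk RNA a smaller number of cells and less RNA per cell cannot be told apart. The 6 BPH-1 vector and parental libraries are in 1 deposited table and all BPH-1 metastasis-derived libraries in another, so stage and table cannot be told apart in BPH-1.

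**Figure D1:**
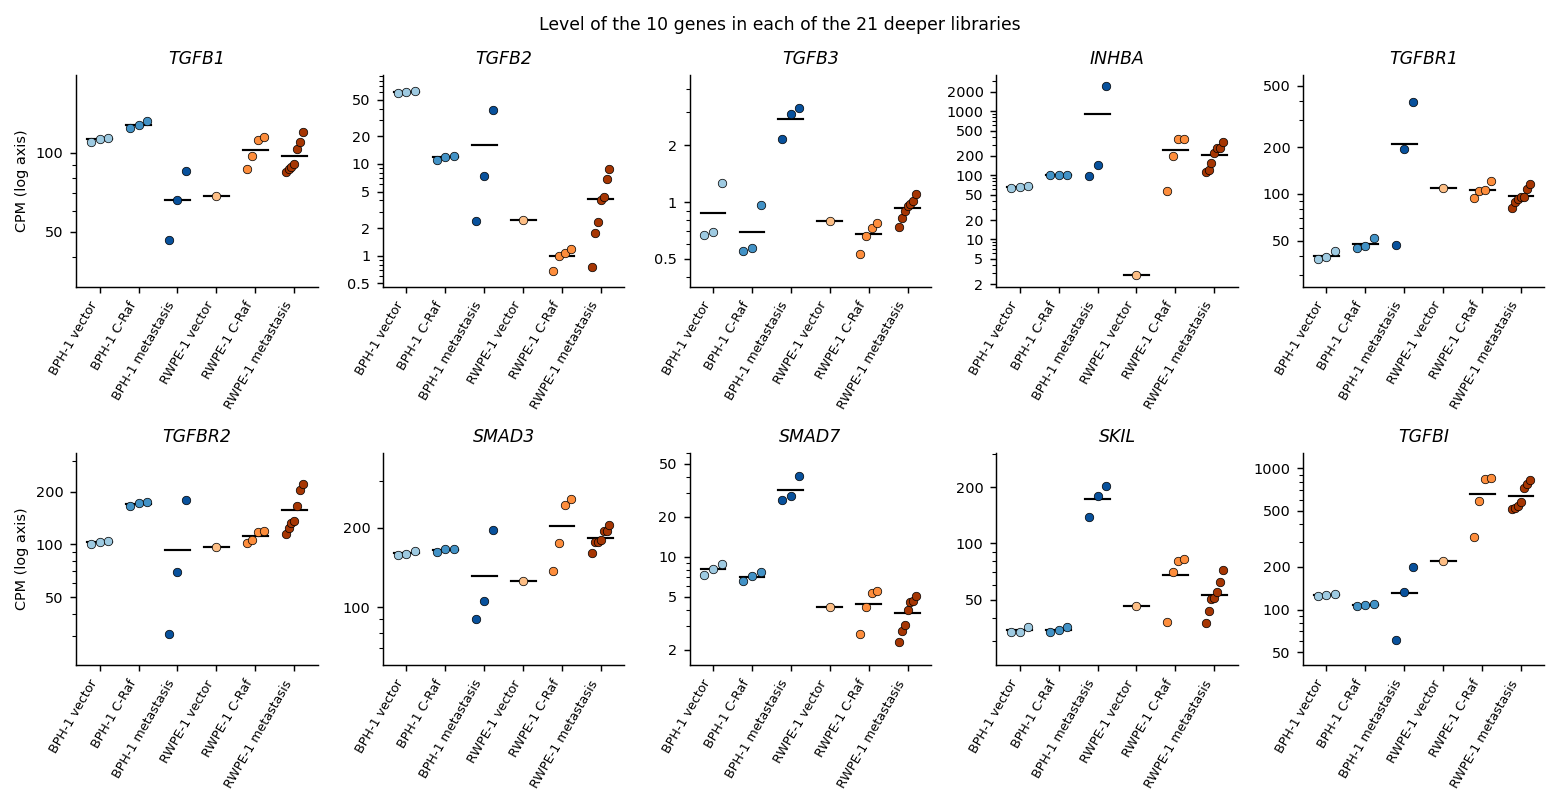
Level of each gene in CPM (log axes, different ranges) in the 21 deeper libraries by cell line and stage, with 1 point per library and a bar at the group mean. SMAD7 and SKIL stand above all other groups in the 3 BPH-1 metastasis-derived libraries, TGFB2 is highest in BPH-1 vector control cells, and INHBA is lowest in the RWPE-1 vector control.

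Per kilobase of exon, the ligands differed widely in level. In BPH-1 vector control cells, TGFB1 had a mean of 34.6 CPM per kb, TGFB2 11.8, INHBA 7.86 and TGFB3 0.178. In RWPE-1 C-Raf parental cells, TGFB1 (31.6 CPM per kb) and INHBA (29.9) were the abundant ligand transcripts, and TGFB2 (0.191) and TGFB3 (0.137) were rare. TGFBR2 exceeded TGFBR1 in 5 of the 6 groups on this scale, with 36.3 against 6.91 CPM per kb in BPH-1 C-Raf parental cells, and the order was turned in BPH-1 metastasis-derived lines (19.8 against 30.9).

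The first comparison set cultured BPH-1 C-Raf parental cells against vector control cells. TGFB2 fell 5.17-fold, the receptor TGFBR2 rose 1.66-fold and INHBA rose 1.55-fold, while TGFBR1 rose 1.19-fold, TGFB1 rose 1.14-fold and TGFBI fell 1.17-fold. Of the 10 genes, 4 rose and 2 fell at an adjusted p below 0.05 (edgeR). Among all 13230 genes tested, 59.8% were called, 30.4% higher and 29.4% lower, so 6 of 10 is close to the background. The median log2 fold change was 0.03 over the 10 genes and -0.002 over all genes.

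TGFB2 had 58.7, 62.7 and 60.7 CPM in vector control replicates 1, 2 and 3 and 11.1, 11.9 and 12.2 CPM in C-Raf parental replicates 1, 2 and 3. The groups lay far apart, and the log2 fold change was -2.36 ± 0.049 (SE, edgeR, adjusted p = 5.27e-25). INHBA had 62.3, 67.4 and 66.0 CPM in vector control and 100.7, 102.0 and 100.1 CPM in C-Raf parental cells, again without overlap (log2 fold change 0.64 ± 0.034, adjusted p = 1.53e-15). TGFB1 went from 109.4 to 114.0 CPM in vector control to 123.7 to 131.7 CPM in C-Raf parental cells (log2 fold change 0.19 ± 0.030, adjusted p = 3.45e-06). TGFB3 stayed at or below 1.26 CPM in all 6 libraries (adjusted p = 0.419).

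The receptor TGFBR2 had 102.9, 104.6 and 100.9 CPM in vector control and 172.3, 165.3 and 174.6 CPM in C-Raf parental cells. This gap exceeded the spread between libraries, which may be technical, many times over (log2 fold change 0.74 ± 0.030, adjusted p = 3.41e-18). TGFBR1 rose from 37.7 to 42.8 CPM to 44.5 to 51.6 CPM (0.25 ± 0.050, adjusted p = 8.91e-05). TGFBI fell from 125.4 to 128.2 CPM to 106.1 to 109.9 CPM (-0.23 ± 0.029, adjusted p = 1.43e-07). SMAD3, SMAD7 and SKIL overlapped between the groups, and their log2 fold changes lay between -0.18 and 0.05 (adjusted p from 0.0909 to 0.732). SMAD7 fell by 0.24 on the log2 scale without vector control replicate 3 (adjusted p = 0.0330) and by 0.23 without C-Raf parental replicate 3 (adjusted p = 0.0500, just under the threshold).

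These calls rest on a replicate spread of 2.43% (biological coefficient of variation, BCV). Squared differences between libraries averaged 1.68 to 4.56 times counting noise in vector control and 2.04 to 2.14 times in C-Raf parental cells. Between the RWPE-1 C-Raf parental libraries they averaged 30.0 to 231.8 times counting noise. When the 3 deeper metastasis-derived libraries shared the fit, 0 of the 10 genes and 377 of all genes were called, with adjusted p from 0.209 to 1.0 for the 10 genes and the same signs.

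**Figure D2:**
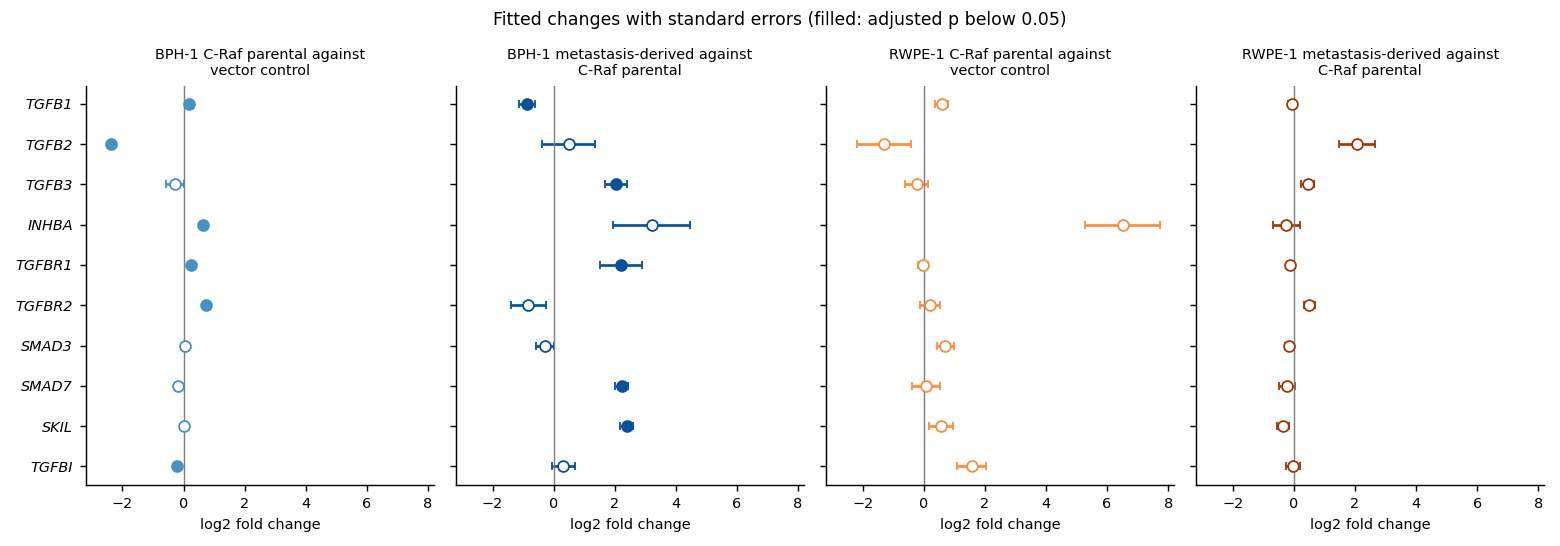
Fitted log2 fold change of each gene (horizontal axis, points) with its standard error (bars) in 4 comparisons, filled where the adjusted p was below 0.05. TGFB2 falls by 2.36 in BPH-1 with C-Raf, SMAD7 and SKIL rise by 2.22 and 2.39 in the BPH-1 metastasis-derived lines, and INHBA has an open point at 6.51 in RWPE-1.

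The second comparison set the BPH-1 metastasis-derived lines against their C-Raf parental cells. Both genes that restrain the pathway rose, SKIL 5.02-fold and SMAD7 4.48-fold. The receptor TGFBR1 rose 4.48-fold and the rare ligand TGFB3 3.97-fold, while TGFB1 fell 1.94-fold. Of the 10 genes, 4 rose and 1 fell (edgeR, adjusted p below 0.05), against a background of 37.8% of 13455 genes called, 21% higher and 16.8% lower. The median log2 fold change was 1.27 over the 10 genes and 0.07 over all genes.

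SKIL had 34.4, 33.5 and 35.7 CPM in the C-Raf parental replicates and 137.6, 179.7 and 203.4 CPM in bone R069, bone R072 and thymus R075. SMAD7 had 6.59, 7.12 and 7.64 CPM and then 26.8, 28.5 and 40.4 CPM in the same order. Both genes rose in all 3 lines with no overlap between groups. The log2 fold change was 2.39 ± 0.20 for SKIL (edgeR, adjusted p = 0.00151) and 2.22 ± 0.22 for SMAD7 (adjusted p = 0.00205), and both stayed called when any of the 6 libraries was left out. SMAD3, the receptor-activated SMAD, had 90.5, 105.9 and 196.1 CPM against 161.9 to 166.5 CPM in parental cells, so the lines fell on either side of the parental range (-0.28 ± 0.30, adjusted p = 0.499).

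In the 3 shallow libraries SMAD7 was also above the parental level, whereas SKIL was so in 1 of them. Bone R071, R074 and R075 held 124, 6 and 21 SMAD7 counts, or 266.8, 45.3 and 188.9 CPM of the unscaled protein-coding total. Their exact 95% Clopper-Pearson intervals were 221.9 to 318.1, 16.6 to 98.7 and 116.9 to 288.7, all above the parental level. SKIL had 43, 3 and 4 counts (92.5, 22.7 and 36.0 CPM), and only the interval of R071, 67.0 to 124.6, lay above the parental range. These intervals cover counting error only. In bone R071, R074 and R075 the epithelial markers summed to 1168, 3658 and 926 CPM of the unscaled protein-coding total. Those sums were 6601 to 6778 CPM in parental cells and 10087 to 11782 CPM in the 3 deeper lines. Their RNA thus differed from that of the deeper lines beyond SMAD7, and what this means for the SMAD7 values was not tested. With all 6 metastasis-derived libraries in the fit, SMAD7 (log2 fold change 4.47 ± 1.14, adjusted p = 0.0141) and TGFB3 (2.14 ± 0.71, adjusted p = 0.0498) were called, SKIL was not (1.92 ± 0.65, adjusted p = 0.0541), and neither were TGFB1 (-1.37, adjusted p = 0.0868) and TGFBR1 (1.41, adjusted p = 0.263).

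Among the ligands, TGFB1 had 127.2 CPM as the parental median and 46.5, 85.2 and 65.9 CPM in bone R069, bone R072 and thymus R075, all below the parental range. The change was called (-0.88 ± 0.26, adjusted p = 0.0381), but only leaving out R072 kept the call: without any other of the 6 libraries the adjusted p ran from 0.0592 to 0.115 at log2 fold changes of -0.93 to -0.67. TGFB3 rose from 0.97, 0.57 and 0.55 CPM to 3.17, 2.95 and 2.17 CPM, at counts of 15 to 29 in the parental libraries and 36 to 90 in the lines (2.04 ± 0.37, adjusted p = 0.00841). Its call was lost without C-Raf parental replicate 2 (1.89, adjusted p = 0.0595) or 3 (1.88, adjusted p = 0.0574).

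INHBA was uneven across the lines. It had 143.4 CPM in bone R069, 96.6 CPM in bone R072 and 2495 CPM in thymus R075, against 100.1 to 102.0 CPM in parental cells. A single line thus set the mean, and the log2 fold change of 3.21 ± 1.26 was not called (edgeR, adjusted p = 0.0874), although it was without bone R072 (3.72, adjusted p = 0.0316), and it was 0.32 without thymus R075 (adjusted p = 0.207). The shallow libraries held 26, 10 and 6 INHBA counts, or 55.9, 75.6 and 54.0 CPM. TGFB2 was as uneven, with 7.33, 2.38 and 38.5 CPM in bone R069, bone R072 and thymus R075 against 11.1 to 12.2 CPM in parental cells (0.50 ± 0.87, adjusted p = 0.677). It lay below the parental range in bone R069 and bone R072 and above it in thymus R075. Its log2 fold change was -1.17 without thymus R075.

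The receptors also differed between lines. TGFBR1 had 194.2, 46.5 and 394.4 CPM in bone R069, bone R072 and thymus R075 against 44.5 to 51.6 CPM in parental cells. On this scale R072 stayed within the parental range. Without TMM scaling R072 (567 counts among 20566347) lay below the parental libraries. The TGFBR1 rise was called (2.20 ± 0.68, edgeR, adjusted p = 0.0442). That call was lost without each single library other than R072 (adjusted p from 0.0897 to 0.134). The smallest log2 fold change, 1.41, was without thymus R075. TGFBR2 had 69.6, 30.6 and 179.5 CPM in the same order against 165.3 to 174.6 CPM (-0.83 ± 0.57, adjusted p = 0.289). It was below the parental range in bone R069 and bone R072 and just above it in thymus R075. Without thymus R075 the TGFBR2 fall of 1.70 was called (adjusted p = 0.0160), as was that of SMAD3 (-0.67, adjusted p = 0.0173).

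The matrix protein gene TGFBI had 132.0, 60.8 and 198.4 CPM in bone R069, bone R072 and thymus R075, on either side of the parental 106.1 to 109.9 CPM (0.32 ± 0.39, adjusted p = 0.537). Without bone R072 it was called as higher (0.64, adjusted p = 0.0249), and with all 6 lines its sign turned (-0.34). Thymus R075 held the highest level of 8 of the 10 genes among the 3 deeper lines, the exceptions being TGFB1 and TGFB3. RN7SL1 took 30.3%, 13.1% and 4.60% of all counts in bone R072, bone R069 and thymus R075. The levels of INHBA, TGFB2, TGFBR1, TGFBR2 and TGFBI rose in that order of libraries, and those of the other members did not. Whether RN7SL1 had a part in these levels was not tested.

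The epithelial markers moved with the same libraries. KRT14 rose, with 3123 to 6576 CPM in the 3 deeper lines against 319.5 to 331.8 CPM in parental cells, and KRT5 rose with it. KRT18 fell from at least 895.0 to at most 167.7 CPM, KRT8 from at least 972.6 to at most 194.2 CPM and EPCAM from at least 209.3 to at most 97.1 CPM, and KRT19 was the fourth of the 8 that fell. Markers of other cell types moved as well. The summed level of the 8 stromal fibroblast markers was 52.9 to 73.2 CPM in the 3 deeper lines against 12.2 to 12.5 CPM in parental cells, almost all from COL1A1 (50.0 to 70.4 CPM), with DCN at most 0.038 CPM. The 4 endothelial markers summed to 2.97 to 40.8 CPM against 1.57 to 1.65 CPM, mainly from VWF. The 8 haematopoietic markers summed to 6.89 to 24.7 CPM against 28.3 to 31.4 CPM, mainly from CD68 (5.58 to 23.1 against 25.8 to 28.9 CPM). The part of these markers in the changes of the 10 genes was not tested.

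**Figure D3:**
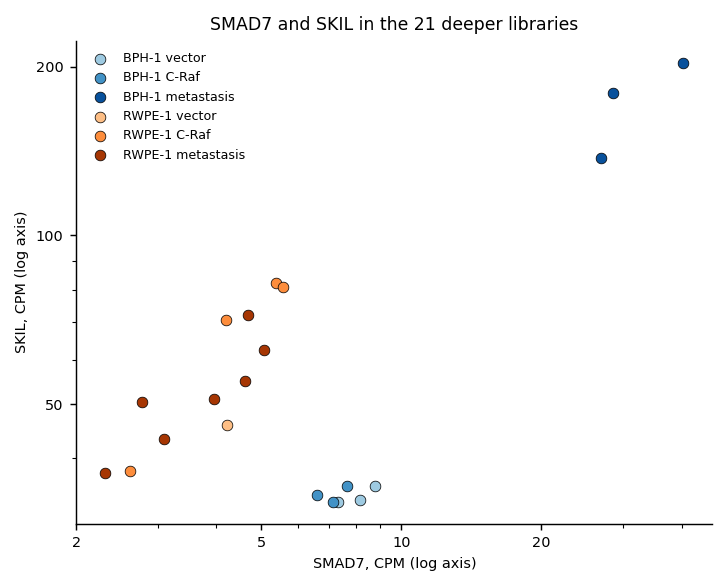
SMAD7 (horizontal) against SKIL (vertical) in CPM on log axes, 1 point for each of the 21 deeper libraries, colored by cell line and stage. The 3 BPH-1 metastasis-derived libraries stand alone at 26.8 to 40.4 CPM of SMAD7 and 137.6 to 203.4 CPM of SKIL, while the BPH-1 vector control and parental libraries cluster together.

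The third comparison was the same C-Raf step in RWPE-1, with 1 vector control library. INHBA showed the largest difference of the 10 genes: 2.72 CPM in the vector control (89 counts) against 56.3, 199.9, 364.7 and 371.3 CPM in C-Raf parental replicates 1 to 4, a 91.1-fold higher mean. The groups lay far apart, but the log2 fold change of 6.51 ± 1.24 had an adjusted p of 0.0510 in edgeR and was not called. None of the 10 genes was called (0 of 10), against a background of 0.382% of 13884 genes. Over all genes 2501 had an unadjusted p below 0.05, and DESeq2 called 803. Epithelial markers summed to 13268 CPM in the vector control against 3963 to 9728 CPM in parental cells. Stromal fibroblast markers summed to 7.93 against 9.54 to 24.5 CPM, mainly from COL1A1 (7.87 against 9.27 to 21.7 CPM). Haematopoietic markers summed to 36.4 against 59.6 to 141.7 CPM, almost all from CD68 (34.6 against 58.4 to 140.5 CPM). PTPRC went the other way, with 0.459 against at most 0.112 CPM. The part of these markers in the differences of the 10 genes was not tested.

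The call on INHBA depended on the setting, with adjusted p from 2.84e-10 to 0.226 over its alternatives. It was called without C-Raf parental replicate 1 (6.84, adjusted p = 0.00275), without Bone4 (6.51, adjusted p = 0.0310), with no filter on low counts (adjusted p = 0.0448) and by DESeq2 (6.52, adjusted p = 2.84e-10). It was not called with a term for the deposited table (5.59 ± 1.03, adjusted p = 0.0609) or with the vector control and parental libraries alone (6.51, adjusted p = 0.226). C-Raf parental replicate 1 shares a table with the vector control and the other 3 parental libraries are in a second table. Within the first table the 2 libraries held 89 and 1876 INHBA counts, a 20.7-fold difference in CPM with no replicates.

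TGFBI had 219.2 CPM in the vector control and 324.0, 586.2, 855.6 and 839.2 CPM in the C-Raf parental replicates, a 2.97-fold higher mean (1.57 ± 0.48, edgeR, adjusted p = 0.153). All 4 parental libraries were above the control, with the one of the same table nearest to it. TGFBI was called without C-Raf parental replicate 1 (1.80, adjusted p = 0.0129) and by DESeq2 (1.58, adjusted p = 0.00849). SMAD3 ran the same way, with 125.9 CPM in the control and 137.5, 175.5, 256.9 and 244.8 CPM in the parental cells (0.70 ± 0.28, adjusted p = 0.225), and was called without replicate 1 (0.84, adjusted p = 0.0267).

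TGFB1 had 68.3 CPM in the control and 86.9, 97.2, 111.5 and 114.2 CPM in the parental cells (0.59 ± 0.21, adjusted p = 0.190). TGFB2 was lower in the parental cells, with 1.08, 1.18, 0.98 and 0.69 CPM against 2.42 CPM (-1.29 ± 0.89, adjusted p = 0.443), at 24 to 44 counts against 79. For both ligands the single control lay outside the range of the 4 parental libraries. SKIL, SMAD7 and TGFBR1 in the control were within the parental range, and TGFBR2 (96.8 CPM against 101.8 to 119.3) and TGFB3 (0.796 CPM against 0.534 to 0.780) were just outside it, with adjusted p from 0.445 to 0.947 for these 5 genes.

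**Figure D4:**
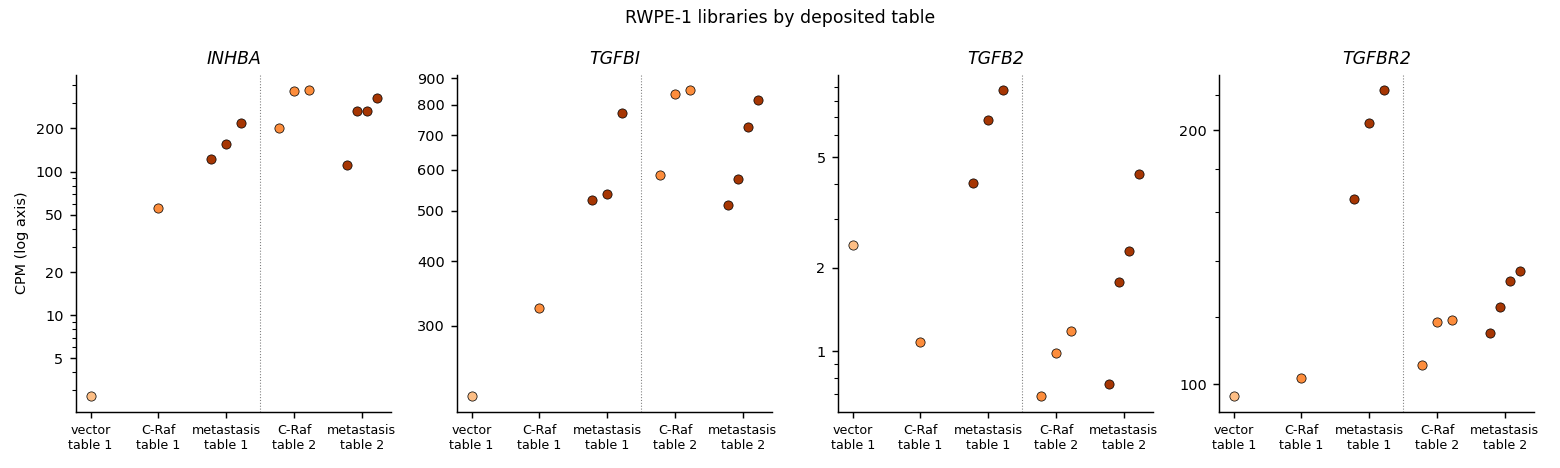
CPM (log axes) of INHBA, TGFBI, TGFB2 and TGFBR2 in the 12 RWPE-1 libraries, 1 point per library, split by the deposited table (left and right of the dotted line). In the first table INHBA goes from 2.72 to 56.3 CPM and on to 122.6 to 219.8 CPM, while in the second table the C-Raf parental and metastasis-derived points overlap.

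The fourth comparison set the 7 RWPE-1 metastasis-derived lines against the 4 C-Raf parental libraries. No member was called (0 of 10), against a background of 0.101% of 13884 genes in edgeR. Over all genes 1129 had an unadjusted p below 0.05, and DESeq2 called 173. The ranges of the 2 groups overlapped for all 10 genes, and the share of all genes with overlapping ranges was not counted.

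TGFB2 moved most. It had 0.76, 4.06 and 8.76 CPM as the lowest, median and highest of the 7 lines, against 0.69 to 1.18 CPM in parental cells. Of the 7 lines, 6 were above every parental library and Spine2 was within their range (2.07 ± 0.58, edgeR, adjusted p = 0.291). DESeq2 called it (2.07, adjusted p = 0.0121). TGFBR2 had 115.0, 136.1 and 223.2 CPM as lowest, median and highest against 101.8 to 119.3 CPM (0.50 ± 0.18, adjusted p = 0.453).

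SKIL ran from 37.6 to 72.2 CPM with a median of 51.1 CPM, against 38.0 to 82.3 CPM in parental cells (-0.35 ± 0.21, adjusted p = 0.699). SMAD7 ran from 2.31 to 5.06 CPM, median 3.96 CPM, against 2.61 to 5.56 CPM (-0.23 ± 0.26, adjusted p = 0.875). Neither gene that restrains the pathway was above its parental range in any of the 7 RWPE-1 lines. That range pools both deposited tables. Within the first, LN1A and Spine were above the lone parental library for SKIL (43.4 and 50.4 against 38.0 CPM) and SMAD7 (3.08 and 2.77 against 2.61 CPM). LN1B was below it for both. Within the second, no line was above the parental range. INHBA had 111.3, 219.8 and 325.6 CPM as lowest, median and highest, within the parental 56.3 to 371.3 CPM (-0.24 ± 0.44, adjusted p = 0.924).

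TGFB1 (84.4 to 119.4 CPM), TGFBR1 (81.3 to 115.2 CPM), SMAD3 (160.7 to 204.7 CPM), TGFBI (513.3 to 819.6 CPM) and TGFB3 (0.734 to 1.10 CPM) had log2 fold changes between -0.15 and 0.46 (adjusted p from 0.617 to 0.986). The 2 deposited tables differed. In the first, LN1A, LN1B and Spine against C-Raf parental replicate 1 gave log2 fold changes of 2.60 for TGFB2, 1.56 for INHBA, 0.96 for TGFBR2 and 0.92 for TGFBI (adjusted p from 0.0672 to 0.122), with the lone parental library assumed to vary like the lines. In the second, with 4 lines against 3 parental libraries, the same genes gave 1.27, -0.37, 0.14 and -0.21 (adjusted p from 0.543 to 0.800). The sign of INHBA and TGFBI therefore turned between tables, and that of TGFB2 and TGFBR2 did not.

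Epithelial markers summed to 2939 to 8041 CPM in the RWPE-1 metastasis-derived lines against 3963 to 9728 CPM in parental cells. CDH1 was below its parental range in every line (88.5 to 181.6 against 217.9 to 255.4 CPM), and the ranges of the other epithelial markers overlapped. Stromal fibroblast markers summed to 64.6 CPM in Bone5 and to 13.6 to 19.2 CPM in the other 6 RWPE-1 lines. Those 6 lay within the parental range of 9.54 to 24.5 CPM. Haematopoietic markers summed to 79.9 to 161.1 CPM against 59.6 to 141.7 CPM, almost all from CD68 (78.0 to 159.7 against 58.4 to 140.5 CPM). Endothelial markers stayed at or below 0.246 CPM in sum. Their part in the levels of the 10 genes was not tested.

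By site, the 3 RWPE-1 bone lines were compared with the 4 lymph node and spine lines. No gene was called among the 10 (0 of 10) or among all 13884 (a background of 0%), with 1251 genes at an unadjusted p below 0.05 and 185 called by DESeq2, none of them a member. TGFBR2 had 136.1, 123.5 and 115.0 CPM in Bone4, Bone5 and Bone6 against 165.8, 203.7, 223.2 and 132.7 CPM in LN1A, LN1B, Spine and Spine2 (-0.54 ± 0.16, adjusted p = 0.353). Spine2 was the only one of those 4 within the bone range, and it shares its table with the bone lines. The other 9 genes had log2 differences between -0.86 (TGFB2) and 0.50 (SMAD7), with adjusted p from 0.500 to 0.986.

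The change from parental to metastasis-derived cells was then tested for a difference between the cell lines. It was larger in BPH-1 than in RWPE-1 for INHBA, SKIL, SMAD7, TGFBR1 and TGFB3 and lower for TGFBR2 and TGFB1. These are 7 of the 10 genes (edgeR interaction contrast, adjusted p below 0.05), 5 in the first direction and 2 in the second, against a background of 46.5% of 15237 genes, 24.4% and 22.2%. SKIL (2.68 ± 0.31, adjusted p = 2.27e-06) and SMAD7 (2.40 ± 0.37, adjusted p = 4.39e-05) differed most clearly: all 3 deeper BPH-1 lines were above their parental range and none of the 7 RWPE-1 lines was. The RWPE-1 parental range pools 2 deposited tables. Within the first of these, LN1A and Spine were above the lone parental library for both genes. The INHBA difference of 3.42 ± 1.06 (adjusted p = 0.0133) rests on thymus R075 and was 0.50 without it (adjusted p = 0.548). Without that line TGFB2 (-3.29, adjusted p = 0.00330) and SMAD3 (-0.60, adjusted p = 0.0366) were called. The TGFBR2 difference (-1.37 ± 0.49, adjusted p = 0.0289) was no longer called without BPH-1 C-Raf parental replicate 1 or 3 or bone R069 (-1.19 to -1.36, adjusted p from 0.0510 to 0.0783).

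With both cell lines pooled and a term for cell line, none of the 10 genes was called for the C-Raf step (0 of 10, background 0.814% of 15237 genes) or for the metastasis step (0 of 10, background 2.53%), in edgeR. The unadjusted p was below 0.05 for 1429 and 4163 genes, and DESeq2 called 446 and 950 (2 members each, TGFB2 with INHBA and TGFB2 with TGFB3). TGFB2 came nearest in the first, at -2.39 ± 0.64 (adjusted p = 0.0922). It had fallen in BPH-1 and was lower in all 4 RWPE-1 parental libraries than in their control. It was called without the RWPE-1 vector control (-2.77, adjusted p = 0.0361) and without bone R072 (-2.27, adjusted p = 0.0346). TGFB3 came nearest in the second, at 1.02 ± 0.27 (adjusted p = 0.0502), and was called without the RWPE-1 vector control, C-Raf parental replicate 1, Bone4 or Bone5 (1.01 to 1.12, adjusted p from 0.0447 to 0.0480). TGFB2 was called there without bone R072 (1.78, adjusted p = 0.0479). The comparisons within and across lines share their samples and are not independent of each other.

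Before metastasis, the C-Raf parental cells of the 2 lines differed in 7 of the 10 genes, 3 higher and 4 lower in RWPE-1 (edgeR), against a background of 74% of 13528 genes, 38% higher and 36% lower. TGFBI was 6.03-fold higher in RWPE-1 (2.60 ± 0.34, adjusted p = 0.000235), TGFBR1 2.25-fold (1.17 ± 0.098, adjusted p = 2.23e-05) and SKIL 1.97-fold (0.98 ± 0.25, adjusted p = 0.00866). TGFB2 was 11.9-fold lower (-3.57 ± 0.18, adjusted p = 2.50e-06), TGFBR2 1.53-fold (-0.61 ± 0.076, adjusted p = 0.000189), SMAD7 1.60-fold (-0.68 ± 0.25, adjusted p = 0.0415) and TGFB1 1.24-fold (-0.31 ± 0.10, adjusted p = 0.0240). Cell line, medium and table cannot be told apart here. INHBA was 2.46-fold higher in RWPE-1 without being called (1.30 ± 0.57, adjusted p = 0.0688). Without RWPE-1 replicate 1 it was called (1.63, adjusted p = 0.000367), as was SMAD3 (0.45, adjusted p = 0.0184). The calls on TGFB1 and SMAD7 were lost without RWPE-1 replicate 2 or without BPH-1 replicate 1 or 2, and that on SMAD7 also without BPH-1 replicate 3 (adjusted p from 0.0521 to 0.109).

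Ordered by mean CPM over the 6 groups, the span between the highest and the lowest group was 334.7-fold for INHBA, 61.7-fold for TGFB2, 8.44-fold for SMAD7, 6.03-fold for TGFBI, 5.32-fold for TGFBR1, 5.07-fold for SKIL, 4.09-fold for TGFB3, 1.94-fold for TGFB1, 1.83-fold for TGFBR2 and 1.62-fold for SMAD3. For INHBA each end rests on 1 library. The highest mean was set by thymus R075 (2495 CPM, against 143.4 in bone R069 and 96.6 in bone R072), and the lowest group is the single RWPE-1 vector control. SMAD7 was highest in BPH-1 metastasis-derived lines (mean 31.9 CPM), then in BPH-1 vector control (8.08) and parental cells (7.12), whose ranges overlapped. The 3 RWPE-1 groups followed at 3.78 to 4.44 CPM, with overlapping ranges. SKIL was also highest in the BPH-1 metastasis-derived lines (173.6 CPM), but the RWPE-1 groups came next (45.9 to 67.9 CPM) and the BPH-1 vector and parental groups last (34.3 and 34.6 CPM).

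TGFB1 ran from 127.5 CPM in BPH-1 parental cells to 65.9 CPM in BPH-1 metastasis-derived lines, with the RWPE-1 vector control (68.3) next to the latter and overlapping it. TGFB3 was apart only at the top, with 2.77 CPM in BPH-1 metastasis-derived lines and 0.675 to 0.929 CPM in the other 5 groups, whose neighbors all overlapped. INHBA descended from BPH-1 metastasis-derived lines (911.7 CPM) through RWPE-1 parental (248.1) and metastasis-derived cells (209.5), which all overlapped. Then came BPH-1 parental (100.9), BPH-1 vector control (65.2) and RWPE-1 vector control cells (2.72), each apart from the group before it. The first place of INHBA rests on thymus R075, as bone R069 (143.4 CPM) and bone R072 (96.6) were below both RWPE-1 means.

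TGFBR1 was highest in BPH-1 metastasis-derived lines (211.7 CPM), which overlapped the 3 RWPE-1 groups (96.9 to 108.5 CPM). The BPH-1 parental (47.3) and vector control cells (39.8) came last, each apart from the group before it in this order. The metastasis-derived lines overlapped the BPH-1 parental cells too, as bone R072 (46.5 CPM) lay within the parental 44.5 to 51.6 CPM. TGFBR2 ran from 170.7 CPM in BPH-1 parental cells to 93.2 CPM in BPH-1 metastasis-derived lines, and the only neighbors that did not overlap were the BPH-1 (102.8) and RWPE-1 (96.8) vector controls. TGFB2 was highest in BPH-1 vector control (60.7 CPM), followed by BPH-1 metastasis-derived (16.1) and parental cells (11.7), which overlapped, and then by the RWPE-1 groups (4.12 CPM in metastasis-derived lines, 2.42 in vector control and 0.984 in parental cells). TGFBI was led by RWPE-1 parental and metastasis-derived cells (651.3 and 638.7 CPM, overlapping), above the RWPE-1 vector control (219.2) and all BPH-1 groups (107.9 to 130.4 CPM). SMAD3 was the flattest member: every neighboring pair in its order overlapped, from 203.7 CPM in RWPE-1 parental cells to 125.9 CPM in the RWPE-1 vector control.

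Around the 10 genes, 68 other genes of the pathway were read from hand-written lists of further ligands, receptors, SMADs, latency and activation genes, inhibitors and corepressors, and target genes. In BPH-1 with C-Raf, 60 of them were tested, 23 rose and 28 fell, with a median log2 fold change of -0.10, against 30.4% of all genes called higher and 29.4% lower. Of the 17 target genes, 12 fell, 3 rose and 2 were not called. CTGF, a matricellular protein gene also known as CCN2, fell from a mean of 120.0 to 22.3 CPM (-2.42 ± 0.040, edgeR, adjusted p = 2.13e-27), and the actin-binding protein genes TAGLN (-2.36) and TPM1 (-1.48) fell with it. SNAI1 and CDKN1A were among the 3 that rose.

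Among the 6 other ligands tested, 2 rose and 4 fell, led by INHBB (-2.16), which encodes the activin B subunit, BMP4 (-1.86) and BMP7 (-1.59). The inhibitory SMAD6 of the BMP branch fell (-2.48 ± 0.15, adjusted p = 3.71e-14). FST, whose product follistatin binds activin, rose from 141.4 to 280.8 CPM (1.00 ± 0.027, adjusted p = 2.00e-22), and INHBA had risen in the same libraries. Of the 12 inhibitors and corepressors, 7 rose and 3 fell. The 9 latency and activation genes tested split into 4 that rose and 5 that fell, with ITGB8, an integrin chain that activates latent TGF-β, at -1.11 and LTBP2 at 1.09. Of the 10 other receptors tested, 5 rose and 2 fell, and of the 6 other SMADs 2 rose and 2 fell.

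In the BPH-1 metastasis-derived lines 15 of 61 tested pathway genes rose and 8 fell, with a median log2 fold change of 0.40. Over all genes 21% were called higher and 16.8% lower, so these counts are close to the background. The mediators SMAD2 (1.37 ± 0.18, adjusted p = 0.00336), SMAD4 (1.08 ± 0.21, adjusted p = 0.0104) and SMAD5 (0.94 ± 0.24, adjusted p = 0.0246) rose, 3 of 6 other SMADs, and none fell. The integrin chains ITGB8 (from 20.9 to 173.8 CPM, 3.10 ± 0.44, adjusted p = 0.00429) and ITGB6 (from 25.2 to 140.3 CPM, 2.52 ± 0.52, adjusted p = 0.0119) rose as 2 of 9 latency and activation genes. BMP2 rose (3.28) and GDF15 fell (-2.89), in a list with 2 of 7 higher and 2 lower. SMURF1, a ubiquitin ligase that works with SMAD7, rose (1.68 ± 0.42, adjusted p = 0.0239), whereas the related SMURF2 fell. NOG (-2.81) and TGIF2 (-1.39) fell as well, among 2 of 12 inhibitors and corepressors higher and 3 lower.

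Target genes moved both ways, with 5 of 17 higher and 2 lower. ID2 (2.89) and BHLHE40 (2.68, from 51.6 to 313.3 CPM) rose, whereas CTGF fell further, from 22.3 to 1.69 CPM (-3.63 ± 0.88, adjusted p = 0.0208). Of 10 other receptors BMPR2 rose (1.60) and ENG, a TGF-β coreceptor, fell (-1.56).

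**Figure D5:**
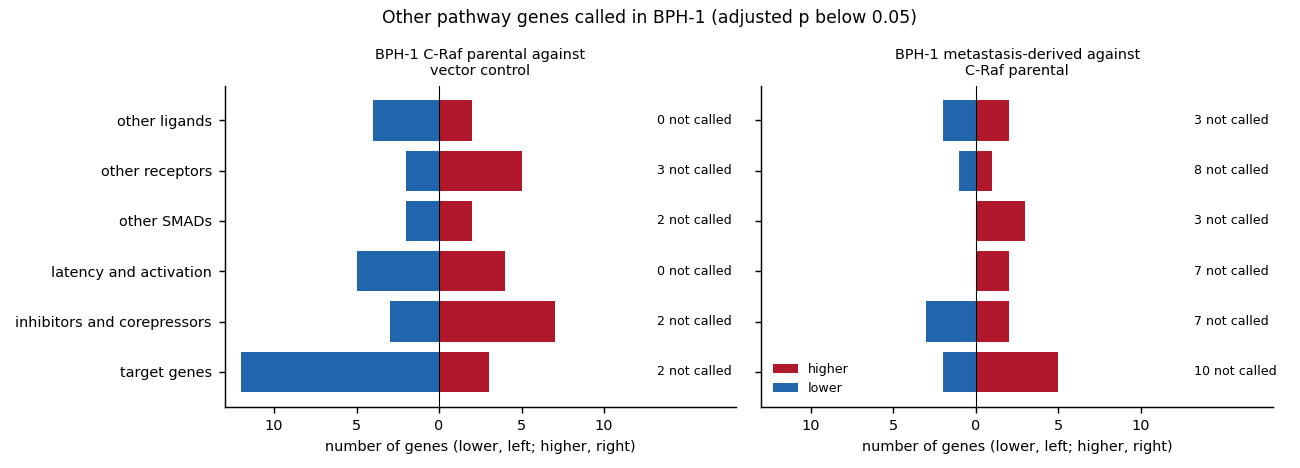
Number of other pathway genes called higher (right) and lower (left) in BPH-1 at an adjusted p below 0.05 in each list, for the C-Raf step (left panel) and the metastasis step (right panel), with the number not called at the side. Target genes show 12 lower and 3 higher in the first panel and 2 lower and 5 higher in the second.

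In RWPE-1, 1 of 60 tested pathway genes was called for the C-Raf step, BMP7, with 10.5 CPM in the vector control against a mean of 0.259 CPM in parental cells (-5.32 ± 0.96, edgeR, adjusted p = 0.0399), and 0 were called for the metastasis step. The vector control is a single library assumed to vary like the other groups, and the edgeR fit of vector control and parental libraries alone called 0 genes (1849 at an unadjusted p below 0.05). The pooled C-Raf step called BMP7 (-3.56) and SMAD6 (-2.01) as lower among 64 tested, and the pooled metastasis step none. The metastasis change differed between the cell lines in 30 of 64, 19 larger in BPH-1 and 11 lower, close to the background of 46.5% of all genes. They include SMAD2 (1.23), SMAD4 (1.12), SMAD5 (0.97), ITGB6 (4.02) and FST (-1.83).

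As a description of likeness, each member was correlated with all 15237 protein-coding genes tested over the 21 deeper libraries, after the mean of each cell line was subtracted from log2 CPM. The points share tables, depth and stage. The gene most like SMAD7 was SKIL itself (Pearson r = 0.97), and those most like SKIL were ZBTB43 and FAM177A1 (both r = 0.98). INHBA was most like ETS1 (0.97) and STX2 (0.92), and TGFBI most like FN1 (0.93) and TMSB4X (0.91). TGFB1 ran with CLU (0.94) and IRF3 (0.93), TGFBR1 with SEMG2 (0.98) and CNOT6L (0.97), and TGFBR2 with C1GALT1C1 and ITPRIPL2 (both 0.92). SMAD3 ran with NFKB2 (0.92) and NFKBIE (0.90), TGFB3 with NAA35 and ZBED6 (both 0.92), and TGFB2 with TTC9C (0.82) and TTC30B (0.81). Within the set, INHBA and TGFBI ran together (r = 0.76), TGFB1 ran against TGFB3 (-0.76) and TGFBR1 (-0.73), and TGFB2 had no coefficient above 0.56 with another member.

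Reads of overlapping transcripts can be split between symbols, and strand use in counting is not given in the sources used here. The antisense INHBA-AS1 had 0 to 26 counts in the deeper libraries, at most 0.400% of those of INHBA. TGFB2-OT1 had at most 16.0 counts and TGFB2-AS1 at most 5, up to 12.9% and 6.90% of the TGFB2 counts.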

How the data were processed

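The authors deposited 4 tables of expected counts, made by their TOIL pipeline with RSEM. The submitters' processing notes name cutadapt, FastQC, STAR and hg38, without versions. No normalization precedes these expected counts, which were rounded. Of 60448 symbols, 36628 were found in GENCODE 29 and 582 by a RefSeq synonym. The 19238 protein-coding genes were kept and filtered by filterByExpr. No column lacked a sample (0). The transcript of the expressed C-Raf gene is not reported here.

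Comparisons used edgeR 4.0.16 (quasi-likelihood, TMM, R 4.3.3) with Benjamini-Hochberg adjustment over all genes tested and a threshold of 0.05. Standard errors came from the F statistic. BPH-1 comparisons used the 2 groups compared, those in RWPE-1 all 12 libraries, and pooled ones 21. Libraries under 1000000 protein-coding counts were left out of the tests. DESeq2 1.42.0, sva 3.50.0 (ComBat-seq), other filters, size factors and left-out libraries were alternatives. The code was tested on simulated data. All 10 members were named, with up to 3 called genes per other list and comparison with the largest change. Also named were the 2 genes most like each member, and others (CDKN1A, SNAI1 and SMURF2) chosen after their values were seen. The members and lists were chosen with earlier results of these data known. A count of 3 is the floor below which no fold is given.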

Additional observations from a re-analysis of the deposited data

Results flagged for a closer look

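The change from C-Raf parental to metastasis-derived cells differed between BPH-1 and RWPE-1 for 7 of the 10 genes by the interaction contrast in edgeR, against 46.5% of all 15237 genes tested. The difference, BPH-1 minus RWPE-1 on the log2 scale, was 2.68 for SKIL, 2.40 for SMAD7, 2.30 for TGFBR1, 3.42 for INHBA, 1.52 for TGFB3, -1.37 for TGFBR2 and -0.88 for TGFB1. The INHBA difference was 0.50 without thymus R075 and was then not called (adjusted p = 0.548). In BPH-1 the contrast rests on 3 lines whose table also differs from that of their parental cells, so table and stage cannot be told apart. Dixon's criterion was applied to the 10 genes in both RWPE-1 groups of 4 or more libraries (4 parental and 7 lines from metastases), where no library stood apart in the 20 sets of values (0 of 20). The BPH-1 groups, with 3 deeper libraries each, were too small for it and were not tested, among them the metastasis-derived lines with INHBA at 2495 CPM in thymus R075 against 96.6 and 143.4 CPM.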

How the results depend on the processing

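Of the values of single genes under planned and added settings, 470 kept their sign and side of the threshold, 23 changed sign, 12 gained and 10 lost a call, and 4 without a test moved by more than the spread. When each library was left out in turn, 1084 did, 42 changed sign, 21 gained and 23 lost a call. The cause was not tested in any case.

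In BPH-1 with C-Raf, the fit that includes the 3 deeper metastasis-derived libraries called 0 of the 10 genes and 377 in all. With all 6 metastasis-derived libraries the BPH-1 metastasis comparison called 2 of the 10 and 2105 in all, and TGFBI turned to -0.34. In RWPE-1 with C-Raf, 1 of the 10 genes was called with no filter and 2 with DESeq2 (803 in all), and the fit of vector control and parental libraries alone called 0 genes. There SMAD7 turned to -0.58 with a term for the table and to -0.69 between the 2 libraries of 1 table, where SKIL turned to -0.27. For the RWPE-1 metastasis comparison, DESeq2 called 1 of the 10 and 173 in all, and the fit without the vector control 8. Its fit within the vector control's table called 181 genes, and 2 were called in the other one. The table term turned INHBA and TGFBI to 0.10 each, and the vector control's table alone turned INHBA (1.56), SMAD3 (0.40), SMAD7 (0.058), SKIL (0.21) and TGFBI (0.92).

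In the pooled C-Raf step DESeq2 called 2 of the 10 genes and 446 in all, ComBat-seq with DESeq2 called 1 of the 10 and 152 in all, and all 24 libraries gave 37 genes. TGFB3 turned to 0.0094 with DESeq2 and 0.033 with 24 libraries. In the pooled metastasis step, all symbols gave 1 of the 10 and 1781 genes, DESeq2 2 of the 10 and 950 genes, and ComBat-seq 2 of the 10 and 499 genes. TGFBR2 turned to 0.0041 with RLE factors, 0.0036 with DESeq2 and 0.28 with ComBat-seq, and TGFBI to -0.11 with 24 libraries, as it did to -0.13 in the difference between cell lines. Between RWPE-1 sites, DESeq2 called 185 genes and the table term 1, and that term turned TGFB1 (-0.18), TGFB2 (0.65), INHBA (-1.20), SMAD7 (-0.10) and SKIL (-0.48).

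Leaving out each library in turn gave 1957 to 8320 genes and 2 to 7 of the 10 for BPH-1 metastasis (most without bone R072), 17 to 1444 and 0 to 3 for RWPE-1 with C-Raf (most without parental replicate 1), 4 to 40 genes for RWPE-1 metastasis (most without Bone4), 38 to 287 and 0 to 1 for the pooled C-Raf step (most without the RWPE-1 vector control), 103 to 490 and 0 to 1 for the pooled metastasis step, and 0 to 4 genes between sites. Signs turned for SKIL (-0.011 to 0.045) and TGFB3 (-0.60 to 0.048) in BPH-1 with C-Raf and for TGFB2 (-1.17 to 0.98) and TGFBI (-0.094 to 0.64) in BPH-1 metastasis. In RWPE-1 they turned for SMAD7 (-0.054 to 0.26) and TGFBR1 (-0.091 to 0.026) with C-Raf, for INHBA (-0.57 to 0.018) and TGFBI (-0.25 to 0.13) in metastasis, and for INHBA (-0.13 to 0.36) and SMAD3 (-0.086 to 0.029) between sites. The pooled C-Raf step turned SMAD3 (-0.010 to 0.24), TGFB1 (-0.057 to 0.22), TGFB3 (-0.18 to 0.26) and TGFBI (-0.13 to 0.34), and the pooled metastasis step INHBA (-0.028 to 1.04), TGFBI (-0.0095 to 0.23) and TGFBR2 (-0.13 to 0.19). The difference between cell lines turned SMAD3 (-0.60 to 0.030) and TGFBI (-0.13 to 0.64), and the cell line comparison TGFB3 (-0.19 to 0.26).

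The BPH-1 vector control and parental libraries share replicate numbers, but libraries of the same number did not deviate together (r = 0.0082, 0.0142 and -0.0232). With the replicate block, 6 of the 10 genes and 7684 in all were called. Depth limits the 3 shallow libraries most: a count of 3 was 6.46 to 27.0 CPM there, above the parental level of TGFB3 in each. TGFB3 had only 15 to 90 counts in the deeper libraries.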
